A study of Mus musculus with 9 samples.

Results

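The Schlafen (Slfn) genes were followed across 3 populations of dendritic cell (DC) progenitors from mouse bone marrow. The family has 8 named members in the set considered, Slfn1, Slfn2, Slfn3, Slfn4, Slfn5, Slfn8, Slfn9 and Slfn14. Of these, 7 had a probe set that names a single gene, out of 19938 genes with such a probe set. Slfn14 had none among the probe sets named here, so its expression was not analysed and only its promoter sequence was used. Members were chosen by family name. Among several probe sets of a gene, the one with the highest mean signal over the 9 arrays would have been selected on that value, but each of the 7 genes had only 1, so this mean decided nothing. It would also have favoured no population. The high signal of Slfn5 in pre-CD8 DCs over Zbtb46+ CDPs was already known from these arrays when the family was taken up. Comparisons of Slfn5 with pre-CD8 DCs are therefore given as values, with no test, and Slfn5 is left out of the counts that involve pre-CD8 DCs.

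Schlafen proteins are found in mammals, and many of their genes are switched on by type I interferon. Mouse members fall into a short subgroup (Slfn1 and Slfn2), an intermediate subgroup (Slfn3 and Slfn4) and a long subgroup (Slfn5, Slfn8, Slfn9 and Slfn14) whose proteins carry a helicase-like part. Several bind or cut tRNA or restrict viruses, and the family is best known for the control of growth and quiescence in T cells and myeloid cells.

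The arrays measured total RNA of sorted cells from the marrow of pelvis, tibia and femur. All groups came from heterozygous Zbtb46-GFP reporter mice, so every group carried the reporter allele, in which green fluorescent protein reports on the classical DC transcription factor Zbtb46. Common DC progenitors without reporter signal (Zbtb46- CDPs), those with it (Zbtb46+ CDPs) and pre-CD8 DCs, the precursors of the CD8 lineage of classical DCs, had 3 arrays each, and the series asks how expression is ordered along this developmental sequence. The labels give no age, sort gate or treatment of the mice and do not say whether the replicates were separate mice, so a p here speaks only of how far these arrays scattered, which may be technical.

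The 8 genes lie in a single cluster on chromosome 11, and the start of each has an entry in RefSeq (mouse build GRCm38.p6). The 250 bases before the start are shown for the genes with the widest range of group means (Slfn5 and Slfn2) and for the neighbouring long members Slfn8 and Slfn9, whose signals moved differently. All are written 5′ to 3′ on the strand of the gene and end at the base before the start. Capitals mark an interferon response element (ISRE, searched as GAAANNGAAA) in Slfn5, Slfn8 and Slfn9. In Slfn2 they mark an Ets and Irf composite element (EICE, searched as GGAANNGAAA), a site at which an Ets factor and an interferon regulatory factor bind together. Both strands were searched. Slfn8 has a pair of annotated starts, and the window of the start farther upstream is shown.
Slfn5, chr11:82951852-82952101, plus strand: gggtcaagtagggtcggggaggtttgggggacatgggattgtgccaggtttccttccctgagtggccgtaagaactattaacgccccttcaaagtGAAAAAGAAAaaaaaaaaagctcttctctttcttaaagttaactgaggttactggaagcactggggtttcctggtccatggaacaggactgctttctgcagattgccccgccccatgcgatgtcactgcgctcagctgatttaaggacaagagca
Slfn2, chr11:83064862-83065111, plus strand: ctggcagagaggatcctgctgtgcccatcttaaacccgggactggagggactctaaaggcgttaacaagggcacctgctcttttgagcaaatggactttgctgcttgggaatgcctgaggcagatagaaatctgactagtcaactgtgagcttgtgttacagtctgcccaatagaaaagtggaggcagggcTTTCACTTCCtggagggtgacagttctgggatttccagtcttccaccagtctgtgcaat
Slfn8, chr11:83020811-83021060, minus strand: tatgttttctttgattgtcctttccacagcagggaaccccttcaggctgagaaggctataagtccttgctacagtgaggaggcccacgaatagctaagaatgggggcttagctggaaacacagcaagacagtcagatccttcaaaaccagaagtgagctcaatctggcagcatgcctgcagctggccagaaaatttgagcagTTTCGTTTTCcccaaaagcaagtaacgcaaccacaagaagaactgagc
Slfn9, chr11:82991831-82992080, minus strand: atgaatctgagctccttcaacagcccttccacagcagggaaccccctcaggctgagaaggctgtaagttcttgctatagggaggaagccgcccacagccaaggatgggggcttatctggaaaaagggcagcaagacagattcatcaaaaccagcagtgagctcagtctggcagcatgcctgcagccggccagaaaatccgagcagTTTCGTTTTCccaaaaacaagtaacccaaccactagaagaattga

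The ISRE letters lay 155 to 146 bases before the start of Slfn5, 48 to 39 bases before that of Slfn8 and 45 to 36 bases before that of Slfn9. They were present in 3 of the 8 members, and in 974 of 32817 annotated mouse windows of the same length (2.97%). In Slfn8 and Slfn9 the match was the same run, TTTCGTTTTC, read on the opposite strand. The Slfn8 and Slfn9 windows were identical at 204 of 255 aligned positions (80%), while no other pair of members reached more than 49.1%. The EICE letters were found in 1 member, Slfn2, 59 to 50 bases before its start, and in 756 of all windows (2.3%). An AP-1 site (TGANTCA) was found in 2 members, Slfn4 and Slfn14, and in 2216 of all windows (6.75%). A Stat site (TTCNNNGAA) was found in 0 of the 8 members and in 2302 of all windows (7.01%). A match says only that the letters are present, and no binding was measured.

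The short and intermediate members shared a run that the long members lacked. The windows of Slfn1, Slfn2, Slfn3 and Slfn4 all hold ACTTCCTGG, which contains the Ets core on the other strand and is the longest run common to all 4. It was chosen after the sequences were seen. Segments of 39 bases around it are shown, with the run in capitals.
Slfn1, chr11:83116731-83116769, plus strand: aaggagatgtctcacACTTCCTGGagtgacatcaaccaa
Slfn2, chr11:83065042-83065080, plus strand: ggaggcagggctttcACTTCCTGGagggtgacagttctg
Slfn3, chr11:83191273-83191311, plus strand: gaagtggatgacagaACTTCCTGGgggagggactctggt
Slfn4, chr11:83175098-83175136, plus strand: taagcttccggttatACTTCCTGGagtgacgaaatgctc

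This run of 9 bases began 74 bases before the start of Slfn1, 55 before that of Slfn2, 42 before that of Slfn3 and 73 before that of Slfn4. In Slfn2 it overlapped the EICE match. It occurred in 230 of all 32817 windows (0.701%). The signals of these 4 genes moved in different ways: Slfn2 rose at both steps, Slfn1 only over the whole span, Slfn3 fell and Slfn4 was not called.

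The labelled populations were checked against marker genes. The summed signal of 9 classical DC markers of the CD8 lineage (all 9 measured) ran from 11346 to 12337 in Zbtb46- CDPs, from 18423 to 20802 in Zbtb46+ CDPs and from 28506 to 28625 in pre-CD8 DCs, and Zbtb46 itself had a log2 signal of 6.53 ± 0.34 (SD, n = 3), 7.24 ± 0.23 and 7.51 ± 0.11. Primary granule genes of granulocyte progenitors (4 of 4 measured) summed to 26635 to 26780, 7212 to 14198 and 436 to 464. Replicate 1 of both CDP groups stood apart: Xist, an RNA made from the inactive X chromosome, was at 5.59 and 5.30 there and between 11.85 and 12.29 on the other 7 arrays. The Y-linked gene Eif2s3y was at 6.92 and 6.51 on those 2 arrays and between 3.63 and 3.78 on the other 7. Secondary granule genes (8 of 8 measured) summed to 5405 and 18160 on the same 2 arrays and to between 663 and 1757 on the rest. Summed monocyte markers (7 of 8 measured) ran from 13150 to 16062 over all arrays, plasmacytoid DC markers (6 of 7) from 3422 to 5393, T, NK and innate lymphoid markers (9 of 10) from 556 to 1153, B cell markers (6 of 7) from 568 to 899, and erythroid and megakaryocyte markers (3 of 6) from 182 to 193. DC progenitor markers (5 of 5) ran from 10323 to 10757 in Zbtb46- CDPs, from 6245 to 7801 in Zbtb46+ CDPs and from 7425 to 7497 in pre-CD8 DCs. Single markers within a sum moved in opposite ways. Among monocyte markers, mean log2 F13a1 was 11.95, 10.08 and 7.19 in the 3 populations, and Ccr2 was 10.85, 11.54 and 12.19. Among DC progenitor markers, Cd93 was 11.83, 10.04 and 7.14, and Kit was 10.47, 10.68 and 11.58. The part of other cells in the Schlafen results was not tested beyond leaving out both arrays low in Xist, and in bulk RNA fewer cells of a type and less RNA per cell cannot be told apart.

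Over the 3 populations, 5 of the 6 measured Schlafen genes other than Slfn5 differed by limma's moderated F test at an adjusted p under 0.05, where 19.1% of all genes did. Slfn4 was the exception, with an adjusted p of 0.347. From Zbtb46- to Zbtb46+ CDPs, 2 of 7 members were called higher (Slfn2 and Slfn5), against 3.85% of all genes, and 2 were called lower (Slfn3 and Slfn9), against 10.6% of all genes. From Zbtb46+ CDPs to pre-CD8 DCs, 2 of the 6 members other than Slfn5 were called higher (Slfn2 and Slfn8), against 4.76%, and limma called 0 lower, against 1.86%, with 0 also at an unadjusted p under 0.05. Over the whole span from Zbtb46- CDPs to pre-CD8 DCs, 3 of these 6 were called higher (Slfn1, Slfn2 and Slfn8), against 6.43%, and 2 lower (Slfn3 and Slfn9), against 9.23%. Single arrays moved these counts. The 2 higher at the first step became 1 without Zbtb46+ CDP replicate 1 or 3, without Zbtb46- CDP replicate 2 or 3, or without pre-CD8 DC replicate 3. The 2 lower there became 1 without Zbtb46+ CDP replicate 2 or without Zbtb46- CDP replicate 1 or 3, and the 2 lower over the span became 1 without Zbtb46- CDP replicate 1 or 3 or pre-CD8 DC replicate 3. The median log2 difference was 0.20 over the 7 genes at the first step, and 0.16 and 0.27 over the 6 genes other than Slfn5 at the second step and over the span, where that of all genes was 0.037, -0.034 and 0.006. Each population enters 2 of the comparisons, so these are not independent of each other.

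**Figure D1:**
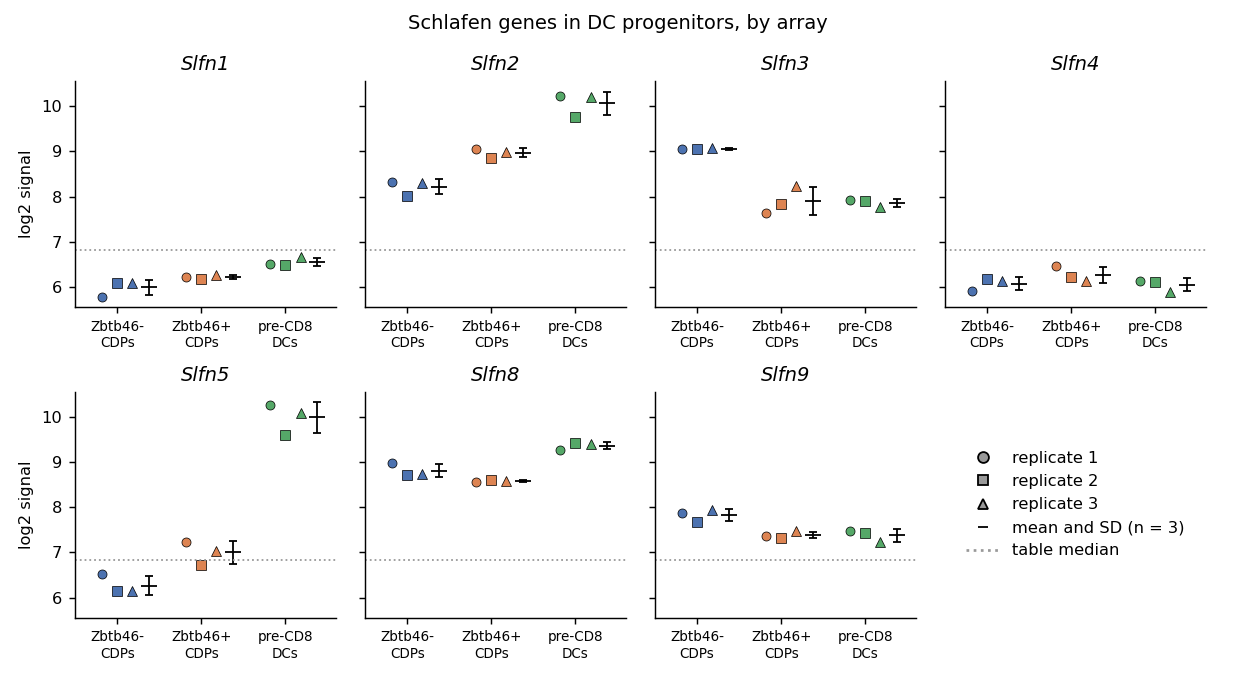
Log2 signal (vertical axis) of the 7 measured Schlafen genes in the 3 populations, with 1 point per array, the marker shape giving the replicate number, and a bar for the mean and SD (n = 3); the dotted line is the table median of 6.82. Slfn2 and Slfn5 step upward in each population, and Slfn3 steps down once. Slfn8 is lowest in Zbtb46+ CDPs, a dip that was not called, and highest in pre-CD8 DCs. Slfn4 stays below the dotted line in every array.

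Slfn5, a long Schlafen that acts in the nucleus as a repressor of transcription, covered the widest range, with group means 3.73 log2 units apart. Its log2 signal was 6.51, 6.15 and 6.14 in the Zbtb46- CDP arrays, 7.24, 6.73 and 7.04 in the Zbtb46+ CDP arrays, and 10.27, 9.61 and 10.09 in the pre-CD8 DC arrays. The arrays of the CDP groups did not overlap. Those of pre-CD8 DCs lay above both, a high signal that was known when the family was taken up. All 3 Zbtb46- CDP arrays and 1 Zbtb46+ CDP array were below the table median of 6.82. A fold from so dim a signal can understate the change in transcript.

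Between the CDP groups Slfn5 rose by 0.74 log2 units (95% interval 0.31 to 1.17, SE 0.192, limma adjusted p = 0.0328), or 1.67-fold. This call rested on small margins. It was lost without Zbtb46+ CDP replicate 1 (difference 0.62, limma adjusted p = 0.0505) or replicate 3 (0.72, adjusted p = 0.0835). It was also lost without Zbtb46- CDP replicate 2 (0.68, limma adjusted p = 0.0919) or replicate 3 (0.67, adjusted p = 0.115). Leaving out pre-CD8 DC replicate 3, which enters only through the shared spread, gave 0.74 with a limma adjusted p of 0.056. Without both arrays low in Xist the difference was 0.75, with a limma adjusted p of 0.0382. From Zbtb46+ CDPs to pre-CD8 DCs the Slfn5 signal was 7.93-fold higher, a log2 difference of 2.99. Over the whole span it was 13.2-fold higher, a log2 difference of 3.73. These differences ran from 2.85 to 3.18 and from 3.59 to 3.95 over 17 alternative settings.

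Slfn8, a long Schlafen that disturbs T cell development when overexpressed in mice, followed another course. Its lowest mean was in the middle population, although that dip was not called. Slfn8 measured 8.98, 8.71 and 8.73 in Zbtb46- CDPs, 8.56, 8.60 and 8.57 in Zbtb46+ CDPs, and 9.27, 9.42 and 9.40 in pre-CD8 DCs. The groups did not overlap, although the gap between the CDP groups was small. Between the CDP groups Slfn8 differed by -0.23 (95% interval -0.43 to -0.03), which missed the threshold (limma adjusted p = 0.12). With quantile normalization this difference was -0.07 (limma adjusted p = 0.647). From Zbtb46+ CDPs to pre-CD8 DCs Slfn8 rose by 0.79 (0.59 to 0.98, SE 0.0878, limma adjusted p = 0.00103), or 1.72-fold. Pre-CD8 DCs also exceeded Zbtb46- CDPs, by 0.56 (0.36 to 0.76, limma adjusted p = 0.00226), or 1.47-fold.

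Slfn9, which lies next to Slfn8 in the order of the cluster and is closest to it in promoter sequence, did not share the rise. Its signals were 7.88, 7.67 and 7.94 in Zbtb46- CDPs, 7.37, 7.32 and 7.47 in Zbtb46+ CDPs, and 7.48, 7.44 and 7.22 in pre-CD8 DCs. All arrays of Zbtb46- CDPs were above the rest, and those of the other 2 populations overlapped. Slfn9 fell by 0.44 log2 units between the CDP groups, a log2 difference of -0.44 (95% interval -0.67 to -0.22, SE 0.101, limma adjusted p = 0.0183), or 1.36-fold lower. The next step gave -0.01 (-0.23 to 0.22, limma adjusted p = 0.984). The whole span gave -0.45 (-0.68 to -0.22, limma adjusted p = 0.0146).

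The call of Slfn9 between the CDP groups depended on single settings. It was lost without both arrays low in Xist (-0.41, limma adjusted p = 0.0542) and with quantile normalization (-0.33, adjusted p = 0.055). Single arrays also decided it: the limma adjusted p was 0.0632 without Zbtb46+ CDP replicate 2 (-0.41), 0.0651 without Zbtb46- CDP replicate 1 (-0.42) and 0.0772 without Zbtb46- CDP replicate 3 (-0.39). The call over the whole span was lost without Zbtb46- CDP replicate 1 (-0.42, limma adjusted p = 0.0522), without Zbtb46- CDP replicate 3 (-0.39, adjusted p = 0.0657) and without pre-CD8 DC replicate 3 (-0.37, adjusted p = 0.0564).

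The separate courses of Slfn8 and Slfn9 were also read within arrays. The Slfn8 minus Slfn9 difference in log2 signal was 1.10, 1.04 and 0.78 in Zbtb46- CDPs, 1.19, 1.28 and 1.10 in Zbtb46+ CDPs, and 1.79, 1.97 and 2.18 in pre-CD8 DCs. The pre-CD8 DC arrays lay above all others, while those of the CDP groups lay just apart. The size of this difference carries the response of each probe set, so only its change is read. It increased by 0.79 from Zbtb46+ CDPs to pre-CD8 DCs and by 1.01 over the whole span, against 0.21 between the CDP groups. This pair was singled out after its separate courses were seen, so these values are a description, with no test. Slfn8 and Slfn9 are closely related copies, and hybridization of one transcript to the other's probes, here and among the other members, was not tested.

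Slfn2, the short member whose loss in mice leaves T cells and monocytes unable to keep their quiescence, rose at every step. Its log2 signal was 8.33, 8.02 and 8.31 in Zbtb46- CDPs, 9.06, 8.86 and 8.99 in Zbtb46+ CDPs, and 10.23, 9.76 and 10.20 in pre-CD8 DCs. No array of one population reached the next, and all 9 were above the table median. The first step was 0.75 (95% interval 0.44 to 1.07, SE 0.139, limma adjusted p = 0.00706), or 1.68-fold. The second was 1.09 (0.77 to 1.40, SE 0.139, limma adjusted p = 0.00217), or 2.13-fold. The whole span was 1.84 (1.53 to 2.16, limma adjusted p = 2.46e-05), or 3.58-fold. These 3 calls held under all 17 alternatives, with differences from 0.65 to 0.92, from 0.95 to 1.24 and from 1.74 to 1.99.

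Slfn1, the other short member, first described as a brake on thymocyte growth, gave low signals throughout. They were 5.78, 6.08 and 6.09 in Zbtb46- CDPs, 6.22, 6.17 and 6.26 in Zbtb46+ CDPs, and 6.51, 6.48 and 6.65 in pre-CD8 DCs. The populations did not overlap, but all 9 arrays lay below the table median, so a true level was not established. The single steps missed the threshold, at 0.23 (95% interval 0.02 to 0.45, limma adjusted p = 0.144) and 0.33 (0.11 to 0.55, adjusted p = 0.0828). The whole span of 0.56 passed it (0.34 to 0.78, limma adjusted p = 0.00346), or 1.48-fold. The second step came past the threshold with both arrays low in Xist left out (0.33, limma adjusted p = 0.0191), with Zbtb46- CDP replicate 1 left out (0.33, adjusted p = 0.0307), with array weights (0.32, adjusted p = 0.0301) and with quantile normalization (0.40, adjusted p = 0.0325).

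Slfn3, an intermediate member linked to T cell activation and gut epithelial differentiation, went the opposite way from Slfn2. It measured 9.05, 9.06 and 9.08 in Zbtb46- CDPs, 7.63, 7.83 and 8.23 in Zbtb46+ CDPs, and 7.93, 7.89 and 7.76 in pre-CD8 DCs. The Zbtb46- CDP arrays lay close together and above every other array, and the remaining populations overlapped. Slfn3 fell by 1.17 between the CDP groups, a log2 difference of -1.17 (95% interval -1.47 to -0.86, SE 0.136, limma adjusted p = 0.000728), or 2.24-fold lower. The step to pre-CD8 DCs was -0.04 (-0.34 to 0.27, limma adjusted p = 0.911). The whole span was -1.20 (-1.51 to -0.89, limma adjusted p = 0.000304), or 2.3-fold lower. The fall between the CDP groups and that over the span were called under all 17 alternatives, from -1.33 to -1.0 and from -1.24 to -1.13.

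Within Zbtb46+ CDPs the Slfn3 arrays spread more widely (SD 0.31) than within Zbtb46- CDPs (SD 0.02) or pre-CD8 DCs (SD 0.09). Replicate 1, the array low in Xist, was the lowest of them and replicate 3 the highest. Without both arrays low in Xist the fall between the CDP groups was -1.04. The uncalled second step of Slfn3 changed sign without Zbtb46+ CDP replicate 3 (0.13) or pre-CD8 DC replicate 3 (0.01).

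Slfn4, the intermediate member known from macrophages and from myeloid cells of the inflamed stomach, showed no step that passed the test. Its signals were 5.91, 6.18 and 6.13 in Zbtb46- CDPs, 6.47, 6.22 and 6.13 in Zbtb46+ CDPs, and 6.13, 6.11 and 5.89 in pre-CD8 DCs. The populations overlapped in every comparison, and all 9 arrays were below the table median. The differences were 0.20 (95% interval -0.06 to 0.47, limma adjusted p = 0.287), -0.23 (-0.49 to 0.04, adjusted p = 0.342) and -0.03 (-0.29 to 0.24, adjusted p = 0.951). These intervals do not exclude changes of up to 0.47 and -0.49 at the single steps. The sign of its span also turned when single arrays were left out, to 0.03 without Zbtb46- CDP replicate 2, 0.00 without replicate 3 and 0.05 without pre-CD8 DC replicate 3.

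The order of the populations thus differed between members. In Slfn2, Slfn5 and Slfn1 pre-CD8 DCs were highest and Zbtb46- CDPs lowest, with Zbtb46+ CDPs between them, although for Slfn1 the neighbouring populations did not differ past the threshold. In Slfn3 and Slfn9 Zbtb46- CDPs were highest, and Zbtb46+ CDPs and pre-CD8 DCs were not separated. In Slfn8 pre-CD8 DCs were highest, and the CDP groups did not differ past the threshold.

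On these arrays Slfn2 and Slfn5 also deviated alike within populations. Over the 9 arrays their signals correlated with Pearson's r of 0.97, which mostly reflects the distance between populations. After each array's deviation from its population mean was taken, r was 0.84 over the 9 arrays, the highest positive value among the 21 pairs of members. Large negative values also occurred, at -0.73 for Slfn1 with Slfn8 and -0.63 for Slfn4 with Slfn8. Replicate 2 was the lowest array for Slfn2 in all 3 populations, by 0.20, 0.11 and 0.30 log2 units below the mean (deviations of -0.20, -0.11 and -0.30). For Slfn5 replicate 2 was the lowest in Zbtb46+ CDPs and pre-CD8 DCs, with deviations of -0.27 and -0.38, while in Zbtb46- CDPs replicates 2 and 3 lay together below replicate 1. The 2 genes share their arrays, and these values are a description with no test. Slfn3 and Slfn9, both highest in Zbtb46- CDPs, correlated at 0.92 over the 9 arrays and at 0.45 in their deviations.

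**Figure D2:**
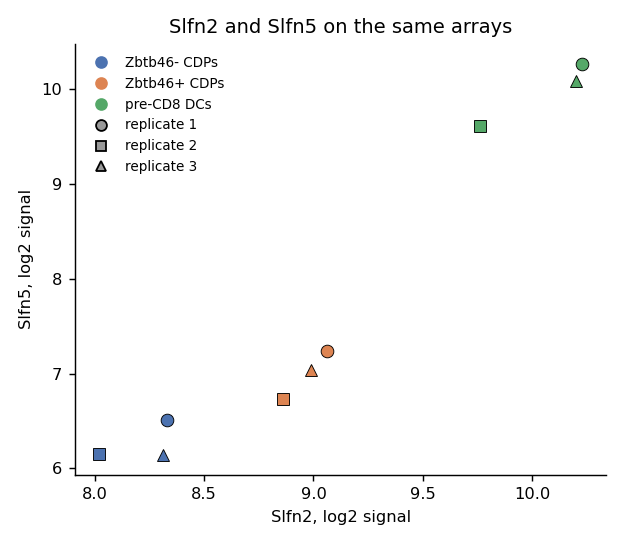
Log2 signal of Slfn5 (vertical axis) against that of Slfn2 (horizontal axis) on the same 9 arrays, coloured by population, with the marker shape giving the replicate number. The populations lie in 3 separate groups (r = 0.97 over all arrays), and replicate 2 (squares) sits lowest for both genes in Zbtb46+ CDPs and in pre-CD8 DCs.

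Along the chromosome, members that changed lay among others that were not called. The RefSeq order is Slfn5os, Slfn5, Slfn9, Slfn8, Slfn10-ps, Slfn2, Slfn1, Slfn4, Slfn3 and Slfn14, 10 genes of which 9 were measured. Slfn5os is a non-coding RNA next to Slfn5 in this order, on the opposite strand. Its log2 signal was 5.59 ± 0.09 (SD, n = 3) in Zbtb46- CDPs, 5.75 ± 0.04 in Zbtb46+ CDPs and 5.72 ± 0.01 in pre-CD8 DCs, and the F test did not call it (limma adjusted p = 0.263). The pseudogene Slfn10-ps, between Slfn8 and Slfn2, was at 6.94 ± 0.04, 6.81 ± 0.05 and 6.93 ± 0.02 (n = 3 each, limma adjusted p = 0.274). Slfn8 and Slfn2 thus rose on both sides of a gene with no called change. Slfn3, which fell, lay beside Slfn4, which was not called. These uncalled genes gave dim signals: Slfn5os and Slfn4 were below the table median of 6.82 on all 9 arrays, and Slfn10-ps ran from 6.76 to 6.99. Whether their transcripts stayed unchanged is therefore not established. Slfnl1, a relative named Schlafen-like that lies on another chromosome, was at 6.82 ± 0.07, 6.82 ± 0.06 and 6.79 ± 0.10 (n = 3 each, limma adjusted p = 0.942).

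**Figure D3:**
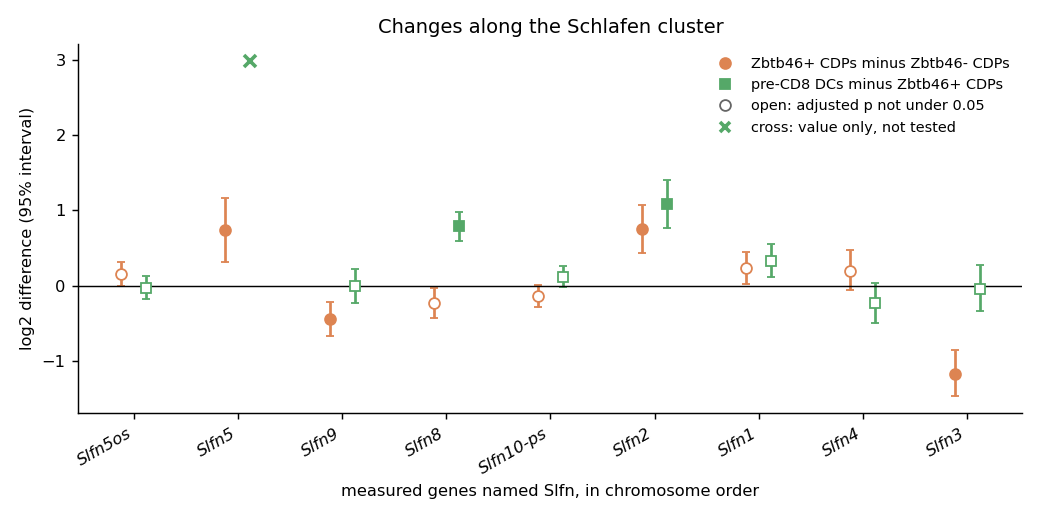
Log2 difference with its 95% interval (vertical axis) for the 9 measured genes of the Slfn cluster, in chromosome order along the horizontal axis, for Zbtb46+ CDPs minus Zbtb46- CDPs (circles) and pre-CD8 DCs minus Zbtb46+ CDPs (squares); open markers did not pass an adjusted p under 0.05. A cross marks the step of Slfn5 to pre-CD8 DCs, given as a value only (2.99). The largest fall is that of Slfn3 (-1.17).

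The genes next to the cluster were examined in the same way. On the side of Slfn5, Nle1, which serves ribosome assembly, fell between the CDP groups by 0.58, from 8.19 ± 0.13 to 7.62 ± 0.22 (n = 3 each, log2 difference -0.58, limma adjusted p = 0.0112), while the nearer Unc45b and Unc45bos were not called by the F test (limma adjusted p = 0.981 and 0.515). The F test called Nle1 at 0.0172, but not without Zbtb46- CDP replicate 1 (limma adjusted p = 0.0711) or replicate 3 (0.0685). Unc45b was dim, with means of 6.41, 6.41 and 6.40 in the 3 populations, below the table median. On the side of Slfn14, the nearest 3 genes had no probe set here, and the next measured genes Ap2b1, Rasl10b and Gas2l2, which were added after the values were seen, were not called (limma adjusted p = 0.318, 0.54 and 0.326). Ap2b1 was called with array weights only (limma adjusted p = 0.00226).

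Because interferon switches on many Schlafen genes, 3 lists of interferon and antiviral genes were set beside them. Of 13 measured genes of 14 for interferon receptors and signalling, 5 rose and 1 fell between the CDP groups (38.5% and 7.69%, against 3.85% and 10.6% of all genes; median -0.17). From Zbtb46+ CDPs to pre-CD8 DCs 7 rose and 0 fell (53.8% and 0%, against 4.76% and 1.86%; median 0.39), and at 1.86% a count of 0 is near the background. Irf7, the interferon regulatory factor that amplifies type I interferon, rose at both steps as Slfn2 did, by 1.24 (limma adjusted p = 0.000195) and 1.95 (adjusted p = 1.65e-05). Jak2, a kinase that acts at cytokine receptors, rose by 1.22 at the first step (limma adjusted p = 0.000143), and Ifngr1, a chain of the interferon gamma receptor, by 1.45 at the second (adjusted p = 4.91e-05). Stat2, which carries the type I interferon signal to ISREs, rose by 0.81 at the second step (limma adjusted p = 0.00112). Tyk2 (0.64 and 0.72, limma adjusted p = 0.0266 and 0.0288) and Ifnar1 (-0.54 at the first step, adjusted p = 0.0274) completed the named members. The call of Tyk2 was lost at the first step without any 1 of the Zbtb46- CDP arrays, and at the second without Zbtb46+ CDP replicate 2 or 3, Zbtb46- CDP replicate 3 or any 1 of the pre-CD8 DC arrays. Fits of the 2 compared groups only lost it at both steps (limma adjusted p = 0.0823 and 0.0887). The call of Ifnar1 was lost without both arrays low in Xist (-0.50, limma adjusted p = 0.0751), with quantile normalization (-0.41, adjusted p = 0.114) and without single arrays. The count of 1 that fell became 0 without Zbtb46+ CDP replicate 2 or any 1 of the Zbtb46- CDP arrays, and 2 without Zbtb46+ CDP replicate 1. Over the whole span 6 rose and 0 fell (46.2% and 0%, against 6.43% and 9.23% of all genes; median 0.21). For both counts of 0 limma gave 0 at an unadjusted p under 0.05 as well. The 7 at the second step became 3 without Zbtb46+ CDP replicate 2, pre-CD8 DC replicate 1 or pre-CD8 DC replicate 3, and 4 without Zbtb46+ CDP replicate 3 or Zbtb46- CDP replicate 3.

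Of 26 measured interferon-stimulated genes of 28, 5 rose and 4 fell between the CDP groups (19.2% and 15.4%, against 3.85% and 10.6% of all genes; median 0.01). From Zbtb46+ CDPs to pre-CD8 DCs 12 rose and 0 fell (46.2% and 0%, against 4.76% and 1.86%; median 0.53). At the first step Samd9l, a gene of antiviral and growth restraint, rose by 4.23 (limma adjusted p = 1.06e-05) and the GTPase gene Mx1 by 0.82 (adjusted p = 0.00647). Eif2ak2, the kinase PKR, differed by -0.81 (limma adjusted p = 0.0068) and Ifit2, a binder of viral RNA, by -0.78 (adjusted p = 0.00626). At the second step the RNA sensor gene Dhx58 rose by 1.23 (limma adjusted p = 0.004), Ifih1, which encodes the sensor MDA5, by 1.08 (adjusted p = 0.00366), and Usp18, which dampens the interferon receptor, by 1.12 (adjusted p = 0.00107). Samd9l rose by 1.18 there (limma adjusted p = 0.0139), a call lost without pre-CD8 DC replicate 1 (adjusted p = 0.0548) or replicate 3 (adjusted p = 0.0635). The 12 became 7 without pre-CD8 DC replicate 1. Over the whole span 9 rose and 0 fell (34.6% and 0%, against 6.43% and 9.23% of all genes; median 0.27), and limma gave 2 that fell at an unadjusted p under 0.05 there and 0 at the second step. The 0 over the span became 1 without Zbtb46+ CDP replicate 1 or replicate 3.

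Of 12 measured virus restriction factors of 13, 1 rose and 4 fell between the CDP groups (8.33% and 33.3%, against 3.85% and 10.6% of all genes; median -0.03). From Zbtb46+ CDPs to pre-CD8 DCs 2 rose and 2 fell (16.7% each, against 4.76% and 1.86%; median 0.23). The membrane proteins Ifitm2 and Ifitm1 differed by -1.16 (limma adjusted p = 0.000539) and -0.98 (adjusted p = 0.000316) at the first step, and Ifitm3 by -0.59 (adjusted p = 0.00476). Samhd1, which depletes nucleotides, rose by 0.75 there (limma adjusted p = 0.00154). At the second step Ifitm3 rose 2.01-fold (limma adjusted p = 0.000506). Ifitm2 (-0.69), Ifitm1 (-0.55) and Samhd1 (0.52) also passed there (limma adjusted p = 0.0135, 0.0112 and 0.018), each losing its call without pre-CD8 DC replicate 1 or replicate 3. Of these, the call of Samhd1 was lost without Zbtb46+ CDP replicate 2 too (limma adjusted p = 0.0571). The Samhd1 call was also lost with quantile normalization (0.38, limma adjusted p = 0.0774) and in a fit of the 2 compared groups only (adjusted p = 0.0595). Over the whole span 3 rose and 2 fell (25% and 16.7%, against 6.43% and 9.23% of all genes; median 0.22). The 3 became 5 without Zbtb46+ CDP replicate 1 and 1 without Zbtb46- CDP replicate 2 or pre-CD8 DC replicate 2. At the second step the 2 that rose became 5 without Zbtb46+ CDP replicate 1, and 1 without Zbtb46+ CDP replicate 2, pre-CD8 DC replicate 1 or pre-CD8 DC replicate 3, and the 2 that fell became 0 without either of these pre-CD8 DC arrays.

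**Figure D4:**
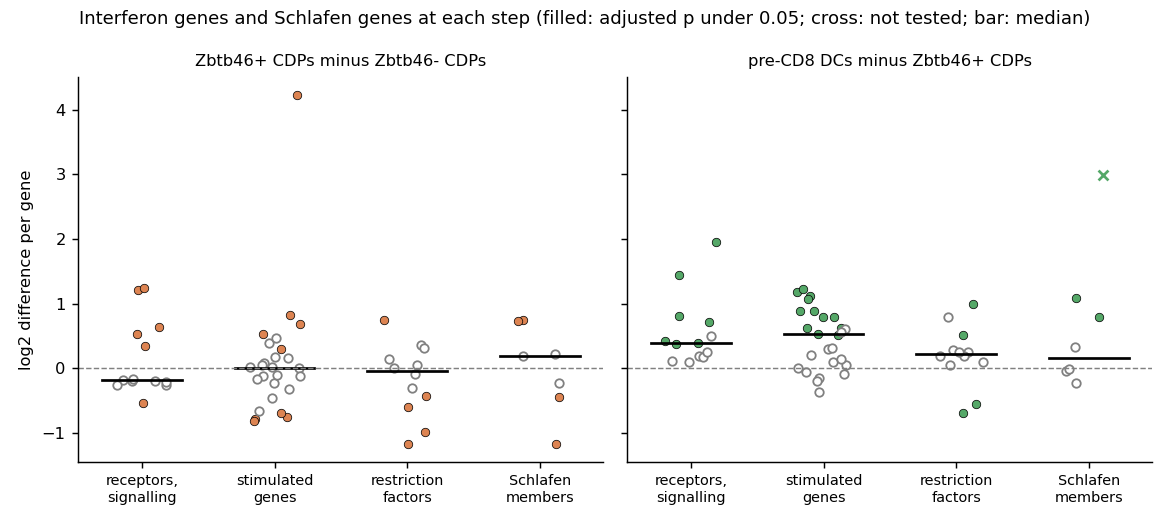
Log2 difference of each gene (vertical axis) in the 3 interferon and antiviral lists and in the 7 Schlafen genes, for Zbtb46+ CDPs minus Zbtb46- CDPs (left) and pre-CD8 DCs minus Zbtb46+ CDPs (right); filled points passed an adjusted p under 0.05, bars are medians, and the cross is Slfn5 at the second step, given as a value only and left out of the median there. At the second step the medians of the 4 sets are 0.39, 0.53, 0.23 and 0.16.

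The genes whose signals ran most like those of the 3 widest-ranging members were sought by Pearson's r over the 9 arrays. The search covered 3680 genes that passed the F test. Schlafen genes and genes with predicted, clone-type, pseudogene, small RNA or antigen receptor names had been left out of it. Slfn5 was most like Cyp27a1 (0.993), Tlr13 (0.993), Fnbp1 (0.992), Kbtbd11 (0.992) and Phf11c (0.991). Tlr13, a receptor for bacterial ribosomal RNA, was at 5.71 ± 0.18 (SD, n = 3) in Zbtb46- CDPs, 6.19 ± 0.26 in Zbtb46+ CDPs and 7.95 ± 0.09 in pre-CD8 DCs, a late rise as in Slfn5. Slfn2 was most like Capn2 (0.992), Il13ra1 (0.989), Stat2 (0.989), Coro1b (0.988) and Riok3 (0.988). Stat2 was at 8.95 ± 0.05, 9.48 ± 0.16 and 10.29 ± 0.08 (n = 3 each), rising at both steps as Slfn2 did. Slfn3 was most like Phpt1 (0.982), Rhobtb3 (0.982), Stip1 (0.981), Syncrip (0.980) and Ap3s1 (0.979), all with their highest mean in Zbtb46- CDPs. These values share the arrays and the differences between populations, and they carry no test.

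The Schlafen differences were also taken without both arrays low in Xist. Slfn2 then differed by 0.76, 1.13 and 1.89 in the 3 comparisons, Slfn3 by -1.04, -0.17 and -1.21, and Slfn8 by -0.13, 0.78 and 0.64. For Slfn5 the values were 0.75, 3.10 and 3.85, for Slfn1 they were 0.13, 0.33 and 0.46, and for Slfn4 0.02, -0.13 and -0.11. For Slfn9 they were -0.41, -0.01 and -0.42, of which the last passed the test (limma adjusted p = 0.0369) and the first no longer did. The balance of calls over all genes moved with the scaling. Of all calls between the CDP groups 26.7% were higher, and 43.6% after quantile normalization. At the step to pre-CD8 DCs 71.9% were higher, and 53.4% after quantile normalization. The directions of Slfn2, Slfn3 and Slfn8 at their called steps, and of Slfn5 between the CDP groups, were the same under that scaling.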

How the data were processed

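RNA of 9 sorted samples was labelled with a whole-transcript kit for very small amounts and hybridized to Affymetrix arrays, per the labels' protocols. Per the submitters' processing notes, the authors used Affymetrix Expression Console and RMA to summarize the arrays; their versions are not given in the sources used here. The deposited value is a signal intensity for each of 28853 probe sets, and it proved linear (7.45 to 20455.6), so log2 was taken, where log2 values had been assumed. Array medians of this intensity lay between 110.2 and 118.0. Precision is limited by having 3 arrays per group. Of 23410 probe sets named in the probe table, 21789 had 1 symbol and were kept. Where a gene had more than 1 (999 genes), the brightest on average was used, leaving 19938 genes, with no filter on dim ones. No 2 arrays were duplicates.

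Group means were compared with limma 3.58.1 (lmFit and eBayes, R 4.3.3) over all 9 arrays, with Benjamini-Hochberg adjustment over all genes and calls at an adjusted p under 0.05. Residual SDs had a median of 0.136 log2 units. The steps were tested on simulated data. The members and lists were chosen with earlier results of these data known. Named genes are all members, other Schlafen probe sets, up to 4 called genes of each list with the largest change, the nearest 3 genes on each side of the cluster, the 5 genes most like each of 3 members, and genes of arrays that stand apart.

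Same-numbered arrays were checked for pairing: their residuals correlated by 0.512, 0.415 and 0.364 between the CDP groups, each over the 0.1 taken here to mean pairing. Unlike numbers ran from -0.513 to 0.38, the highest being Zbtb46- CDP replicate 3 with Zbtb46+ CDP replicate 2, so replicates 2 and 3 are not separated by number. Against pre-CD8 DCs the values were -0.011, -0.026 and 0.028 for Zbtb46- CDPs. They were 0.106, 0.073 and 0.168 for Zbtb46+ CDPs. Values over 0.1 thus also occurred there and among unlike numbers, so this limit does not tell paired arrays from unpaired ones. The main comparisons did not use the replicate numbers. A fit with a replicate block is given with the alternative settings. Promoter windows came from RefSeq (GRCm38.p6), searched with Python 3.11.15. Coordinates of the probe sets and protein sequences were not used here.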

Additional observations from a re-analysis of the deposited data

How the results depend on the processing

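Of 357 Schlafen differences under alternative settings, 332 kept their direction and side of the threshold, 13 lost a call, 4 gained one and 8 changed sign, all of the last in differences that were never called. The 357 include the differences of Slfn5 from pre-CD8 DCs, 17 for each comparison, all among the 332. The high Slfn5 signal in pre-CD8 DCs was known beforehand, so these add no support. The sign changes were those of Slfn3 (0.13 and 0.01) and Slfn9 (0.02 with array weights, 0.03 and 0.08) at the step to pre-CD8 DCs, and of Slfn4 over the span (0.03, 0.00 and 0.05). With single arrays left out these differences ran from -0.17 to 0.13, from -0.05 to 0.08 and from -0.11 to 0.05. The replicate block changed no Schlafen call (Slfn2 0.75, 1.09 and 1.84, limma adjusted p = 0.00132, 0.000403 and 7.96e-06; Slfn9 at the first step -0.44, adjusted p = 0.0275). It did raise the virus restriction factors called higher over the span from 3 to 5. Leaving out both arrays low in Xist and repeating the list counts were chosen after seeing the data. The cause of these shifts was not tested.

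Members called lower at the first step were 1 without both arrays low in Xist and 1 with quantile normalization. With single arrays left out, they ran from 1 to 2, those called higher from 1 to 2 and those lower over the span from 1 to 2. Interferon receptors and signalling genes called lower at the first step were 4 with array weights, 0 with quantile normalization and 0 to 2 with single arrays left out. Those called higher at the second step were 4 with quantile normalization, 4 in the fit of 2 groups and 3 to 7 without single arrays, and those lower over the span were 1 with array weights and 1 without both arrays low in Xist. Interferon-stimulated genes called lower at the first step were 8 with array weights and 7 without both arrays. Those higher at the second step were 7 to 13 without single arrays. Over the span 14 were higher with array weights, and those lower were 3 with array weights, 2 with the replicate block, 1 each with the dimmest 30% of genes dropped, an intensity trend with robust moderation and the fit of 2 groups, and 0 to 1 without single arrays. Virus restriction factors called higher were 2 at the first step with quantile normalization. At the second step they were 5 with array weights, 6 without both arrays, 1 with quantile normalization, 1 in the fit of 2 groups and 1 to 5 without single arrays, with 0 to 2 lower. Over the span they were 7 with array weights, 5 without both arrays, with quantile normalization and in the fit of 2 groups, and 1 to 5 without single arrays. Of 424 such counts 365 stayed within 1.5 times. In this tally alone, the Schlafen counts that involve pre-CD8 DCs include Slfn5. Over all genes, 1737 were higher and 2758 lower at the first step without both arrays, 2496 and 1570 at the second, and 1875 and 2146 over the span.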
